A study of Mus musculus with 12 samples.

Results

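Endomucin and 8 other glycoproteins of the endothelial surface were followed as transcripts in cells purified as bone endothelial cells (BECs) from young and aged mice. The 9 genes, of the 37620 in the count table, were taken by symbol and matched to their Ensembl IDs, and all 9 were found. They were Emcn, Cd34, Podxl, Clec14a, Cd93, Mmrn2, Pecam1, Icam2 and Mcam.

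BECs came, by the labels, from the tibia of c57/Bl6 mice, an inbred laboratory strain, that carried no allele and received no treatment named in the labels, while the methods of the study describe the femur as a source too. There were 4 groups of 3 libraries each, from females aged 2 weeks (F.2weeks), males aged 2 weeks (M.2weeks), females aged 65 weeks (F.65weeks) and males aged 65 weeks (M.65weeks). Cells were purified by endomucin protein, the product of Emcn, and lysed directly for RNA sequencing, so Emcn encodes the protein on which the cells were selected. The labels do not say whether a library held 1 mouse or several, and P values measure only the spread between these libraries.

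The endothelial surface carries a layer of heavily glycosylated proteins that face the blood, hold leukocytes off or let them attach, and join neighbouring cells. Emcn, Cd34 and Podxl encode sialomucins, rod-like proteins dense in sialylated sugar chains. Clec14a and Cd93 encode group 14 C-type lectins that bind multimerin 2, the matrix protein encoded by Mmrn2, and Pecam1 (CD31), Icam2 and Mcam (CD146) encode immunoglobulin-family adhesion proteins of the cell contacts. In bone, strong staining for endomucin and CD31 marks the type H capillaries near the growth plate, which accompany bone formation, and several of these proteins are also made by blood cells or by cells of the vessel wall.

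The sequence before the start of transcription is shown for the sialomucins Emcn and Cd34 and for the lectin Clec14a, since Clec14a fell the most with age, Emcn encodes the protein used for the sort and Cd34 is a sialomucin that fell less. ETS factors, a family that includes ERG and is widely used by endothelial genes, bind around the letters GGAA. A promoter was listed by RefSeq (GRCm38.p6) for 4 of the 9 genes, these 3 and Mcam. Each line runs 5′ to 3′ on the strand of the gene, ends where the first annotated exon begins, and has GGAA, or TTCC where it lies on the other strand, in capitals.
Emcn: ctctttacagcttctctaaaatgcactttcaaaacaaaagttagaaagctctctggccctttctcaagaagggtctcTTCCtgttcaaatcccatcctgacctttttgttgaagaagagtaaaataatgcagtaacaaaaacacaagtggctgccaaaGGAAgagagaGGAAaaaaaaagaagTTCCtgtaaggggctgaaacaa
Cd34: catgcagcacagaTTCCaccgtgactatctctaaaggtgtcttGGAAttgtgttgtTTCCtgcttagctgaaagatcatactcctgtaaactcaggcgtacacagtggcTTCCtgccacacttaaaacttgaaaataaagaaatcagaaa
Clec14a: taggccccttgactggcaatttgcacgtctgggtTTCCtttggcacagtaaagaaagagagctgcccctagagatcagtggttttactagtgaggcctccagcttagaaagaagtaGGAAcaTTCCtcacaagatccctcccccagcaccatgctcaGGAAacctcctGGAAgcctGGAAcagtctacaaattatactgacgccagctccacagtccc
By exact match in GRCm39 these stretches lie at chr3:137046589-137046793 on the plus strand, chr1:194620879-194621028 on the plus strand and chr12:58316077-58316294 on the minus strand, and no base of them is in an annotated exon. Within the 250 bases before the RefSeq start, GGAA was found on either strand 4 times for Emcn, 5 times for Cd34, 6 times for Clec14a and 1 time for Mcam. Of 32536 promoter windows of that length 93.4% held at least 1 such match and the median was 3 matches, while 33.5% held at least as many as Emcn, 18.1% as many as Cd34 and 8.7% as many as Clec14a. AGATAA, letters used by a family of blood cell and endothelial factors, was found on neither strand in any of the 4 windows, as against 10% of all windows. ACAATG, letters used by SOX factors, was also found in none of the 4, as against 10.5% of all. CACCC (KLF factors) was found on either strand 1 time for Clec14a and not for the others, as against 52.1% of all windows. These are matches of letters and not binding sites.

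Total counts ran from 26044743 to 44569600 per library, and each 2-week library (at least 35012947) was deeper than each 65-week library (at most 34088694). Every one of the 9 genes had counts in all 12 libraries, between 1548 and 21866 at 2 weeks, and the lowest was 17 counts of Podxl in M.65weeks replicate 1. The labelled cell type was set against 10 endothelial genes that are not among the 9 (Cdh5, Tek, Tie1, Kdr, Flt1, Robo4, Erg, Sox18, Egfl7 and Esam), called the endothelial reference here. None of them was at 0 in any library. Their summed level was 1695 to 3158 CPM (counts scaled to the library total) at 2 weeks and 97.0 to 129 CPM at 65 weeks, or 0.259% and 0.0112% of all counts on average. The erythroid (2.24%), neutrophil (0.394%) and monocyte and macrophage (0.401%) markers took more of the counts than the reference at 2 weeks, and still did at 65 weeks. So did the stromal and adipocyte markers (0.691% and then 0.120%). The osteoblast markers took more than the reference at 2 weeks (0.354%) but not at 65 weeks (0.0107%). At 65 weeks 6 erythroid genes summed to 16379 to 24083 CPM, 8 neutrophil genes to 8629 to 19680 CPM and 8 B cell genes to 7149 to 18788 CPM. The B cell markers then took 1.08% of the counts and the plasma cell markers 0.109%, against 0.0112% for the reference. The T and NK cell, pericyte and smooth muscle, and chondrocyte markers took less than the reference. In bulk RNA, fewer cells of a type and less RNA per cell cannot be told apart, and this holds for each change with age given here.

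The levels of the 9 genes at 2 weeks spanned about an order of magnitude. Levels between genes were compared as CPM per kilobase of the Ensembl canonical transcript. Pecam1 was the highest in F.2weeks at 89.7 ± 21.7 and in M.2weeks at 113.9 ± 14.9 CPM per kilobase (SD, n = 3). Icam2 was the lowest at 8.0 ± 1.67 and 10.8 ± 1.59, so the span was 11.2-fold and 10.5-fold. At 65 weeks the order had spread out. Pecam1 remained the highest in females at 23.9 ± 4.48 CPM per kilobase, against 0.411 ± 0.0483 for Clec14a, a span of 58.1-fold. In males Cd93 was the highest at 14.7 ± 2.58 and Podxl the lowest at 0.501 ± 0.342, a span of 29.4-fold. Of the 8 pairs of neighbours in the order, the ranges over libraries overlapped for 6 in each 2-week group, 4 in F.65weeks and 5 in M.65weeks. These ranges were taken gene by gene although the genes share libraries, so an overlap does not show that the order changed within a library. Clec14a stood above Podxl, and Podxl above Icam2, without overlap at 2 weeks in both sexes. The order depends on transcript length: per kilobase of all annotated exons Pecam1 ranked 2 in F.2weeks, 3 in M.2weeks and 2 in F.65weeks.

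Summed over the 9 genes, the level was 1611 ± 404 CPM in F.2weeks, 2114 ± 296 in M.2weeks, 264 ± 17.4 in F.65weeks and 194 ± 44.5 in M.65weeks. Pecam1 and Cd93 made up 42.1% and 40.9% of that sum at 2 weeks, in females and males, and 77.7% and 72.2% at 65 weeks.

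**Figure D1:**
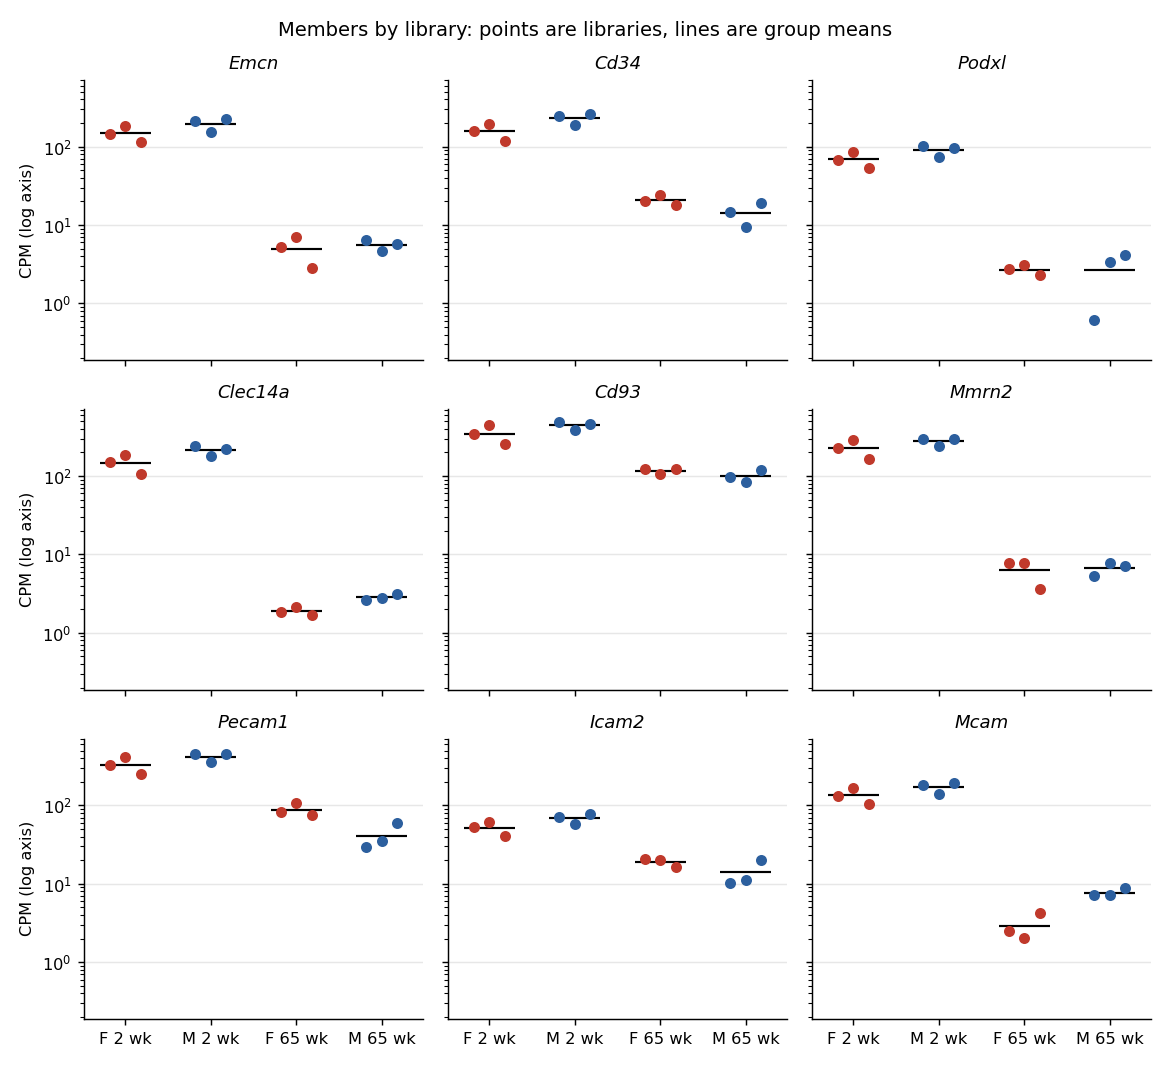
CPM of each gene (log axis) in the 12 libraries, with females in red, males in blue and a line at each group mean of 3 libraries. In all 9 panels every 65-week library lies below every 2-week library of its sex, by the least for Icam2, Cd93 and Pecam1.

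The comparison of ages asks how cells purified as BECs from growing and from aged mice differ. All 9 genes fell with age in both sexes. The fall ran from 2.45-fold for Icam2 to 70.8-fold for Clec14a in females and from 4.16-fold for Cd93 to 69.8-fold for Clec14a in males. Of all genes tested, 29.5% of 15120 were called lower in females and 28.5% of 14959 in males by edgeR's quasi-likelihood test at an adjusted P of 0.05. In females this was 4568 genes higher and 4462 lower, and with library totals alone as the scaling 3668 and 5451. The groups did not overlap for any of the 9, where 41.6% and 39.4% of all genes were lower at 65 weeks without overlap. Falls of at least 8-fold were called in 7% and 7.98% of all genes, and among the 9 in 5 (Emcn, Podxl, Clec14a, Mmrn2 and Mcam) in females and in those with Cd34 and Pecam1 in males. The median log2 fold change of the 9 was -4.53 in females and -4.35 in males, that of the endothelial reference was -4.22 and -4.51, and that of all genes was 0.0056 and 0.0080.

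Among the sialomucins, Emcn (chromosome 3, 137046794 to 137138999, plus strand, GRCm39) encodes a protein of veins and capillaries that keeps leukocytes from attaching. It was at 145.9, 181 and 115 CPM in the F.2weeks libraries and at 209.7, 154 and 227 in M.2weeks. At 65 weeks it was at 5.23, 6.98 and 2.80 CPM in females and 6.51, 4.59 and 5.80 in males. The lowest young library was far above the highest aged one, and the sexes overlapped at both ages. The fall was 26.5-fold in females (log2 fold change -4.73, SE 0.317, edgeR adjusted P = 1.1e-05) and 32.2-fold in males (-5.01, SE 0.210, adjusted P = 1.81e-06), and it rested on 82 to 238 counts per aged library.

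Cd34 (chromosome 1, 194621029 to 194647172, plus strand) encodes the surface sialomucin of capillaries that also marks blood progenitors. It was at 160.1, 194 and 119.6 CPM in F.2weeks, 249, 188 and 260.3 in M.2weeks, 20.5, 24.4 and 17.8 in F.65weeks and 14.8, 9.48 and 19.0 in M.65weeks. It fell less than Emcn in females, by 6.83-fold (log2 -2.77, SE 0.186, edgeR adjusted P = 1.1e-05), and by 14.9-fold in males (-3.90, SE 0.255, adjusted P = 1.36e-05). The libraries did not overlap between ages, and those of the sexes overlapped at both ages. Markers of stem and progenitor cells, which can carry Cd34, gave no common direction: 8 genes summed to 153 to 200.2 CPM at 2 weeks and 152 to 269 at 65 weeks, with 4 called higher and 1 lower in females and 2 and 2 in males. The stromal and adipocyte markers, of cells that can also carry Cd34, were called lower, 6 of 6 in both sexes. They summed to 5074 to 8095 CPM at 2 weeks and to 934 to 1533 CPM at 65 weeks. The part of either set of cells in the Cd34 level was not tested. Gm16897, a long noncoding RNA gene, overlaps 4.11% of the exon bases of Cd34 on the other strand and was not among the genes counted.

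Podxl (chromosome 6, 31496418 to 31540924, minus strand) encodes podocalyxin, which opens vessel lumens by charge repulsion. It was at 67.2, 85.6 and 53.6 CPM in F.2weeks and 100.4, 73.9 and 94.8 in M.2weeks. It was at 2.72, 3.08 and 2.29 CPM in F.65weeks and at 0.622, 3.33 and 4.15 in M.65weeks, where replicate 1 stood well below the other 2. The fall was 23.1-fold in females (log2 -4.53, SE 0.195, edgeR adjusted P = 1.99e-06). In males it was 31.0-fold with the largest error of the 9 genes (-4.95, SE 0.500, adjusted P = 0.000116).

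The lectin Clec14a (chromosome 12, 58311506 to 58316076, minus strand), which takes part in vessel sprouting, fell the most. It was at 149.7, 187 and 106 CPM in F.2weeks, 242, 182 and 218 in M.2weeks, 1.86, 2.11 and 1.67 in F.65weeks and 2.60, 2.74 and 3.15 in M.65weeks. Libraries of the same aged group lay close together, and all 3 aged males lay above all 3 aged females. The fall was 70.8-fold in females (log2 -6.15, SE 0.233, edgeR adjusted P = 1.74e-06) and 69.8-fold in males (-6.13, SE 0.157, adjusted P = 6.99e-07).

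Cd93 (chromosome 2, 148270798 to 148285546, minus strand) encodes a lectin of the same family that is shared with myeloid cells and early B cells. It was at 344, 447 and 253 CPM in F.2weeks, 491, 383.5 and 463 in M.2weeks, 125, 106 and 122 in F.65weeks and 95.8, 83.7 and 118 in M.65weeks. The aged libraries all lay below the young ones, and the sexes overlapped at both ages. The fall was 2.69-fold in females (log2 -1.43, SE 0.177, edgeR adjusted P = 0.000241) and 4.16-fold in males (-2.06, SE 0.148, adjusted P = 2.09e-05). Clec14a, of the same family, fell by 70.8-fold and 69.8-fold.

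Mmrn2 (chromosome 14, 34097422 to 34126527, plus strand), the matrix ligand of both lectins, followed Clec14a more than Cd93. It was at 226, 285 and 165.5 CPM in F.2weeks, 296.5, 238 and 293 in M.2weeks, 7.75, 7.86 and 3.62 in F.65weeks and 5.23, 7.67 and 7.10 in M.65weeks. The lowest young library exceeded the highest aged one by far, while the sexes overlapped at both ages. It fell by 31.8-fold in females (log2 -4.99, SE 0.327, edgeR adjusted P = 9.99e-06) and 38.2-fold in males (-5.26, SE 0.177, adjusted P = 1.03e-06). Sncg overlaps 4.03% of its exon bases on the other strand and had 2 to 141 counts per library.

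Among the immunoglobulin-family genes, Pecam1 (chromosome 11, 106543689 to 106641454, minus strand) encodes CD31 of the cell contacts, which platelets and leukocytes carry as well. It was at 327.5, 411.2 and 251 CPM in F.2weeks and 448, 356 and 453 in M.2weeks. It was at 82.9, 106 and 74.6 CPM in F.65weeks and at 29.2, 35.2 and 59.2 in M.65weeks. The aged males all lay below the aged females, whereas the young sexes overlapped. The fall was 3.40-fold in females (log2 -1.77, SE 0.191, edgeR adjusted P = 0.000113) and 9.47-fold in males (-3.24, SE 0.249, adjusted P = 2.84e-05).

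Icam2 (chromosome 11, 106263312 to 106278943, minus strand) encodes a contact protein bound by leukocyte integrins and present on lymphocytes and platelets. It was at 52.4, 62.0 and 40.4 CPM in F.2weeks, 72.1, 58.5 and 78.5 in M.2weeks, 20.9, 20.1 and 16.4 in F.65weeks and 10.4, 11.1 and 20.4 in M.65weeks. The third aged male lay with the aged females and the other 2 below them. The fall was 2.45-fold in females (log2 -1.29, SE 0.156, edgeR adjusted P = 0.000209) and 4.66-fold in males (-2.22, SE 0.244, adjusted P = 0.000187). Prr29 overlaps 24.5% of its exon bases on the other strand and had 0 to 1 counts.

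Mcam (chromosome 9, 44045504 to 44054025, plus strand) encodes CD146, an adhesion protein of endothelial cells and pericytes. It was at 134, 165 and 104 CPM in F.2weeks, 181, 139 and 193 in M.2weeks, 2.48, 2.02 and 4.30 in F.65weeks and 7.28, 7.19 and 8.72 in M.65weeks. The aged males lay above the aged females without overlap. The fall was 41.8-fold in females (log2 -5.39, SE 0.286, edgeR adjusted P = 4.13e-06) and 20.4-fold in males (-4.35, SE 0.157, adjusted P = 1.27e-06). The pericyte and smooth muscle markers fell too, 8 of 8 in both sexes, from 710.0 to 1239 CPM in sum at 2 weeks to 43.0 to 70.4 CPM at 65 weeks. The stromal and adipocyte markers, of cells that can also carry Mcam, fell as well, 6 of 6 in both sexes. The part of either set of cells in the Mcam level was not tested. Gm10687, a long noncoding RNA gene, overlaps 15.3% of the exon bases of Mcam on the other strand and was not among the genes counted. Whether reads of Gm10687 were counted to Mcam is not known.

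**Figure D2:**
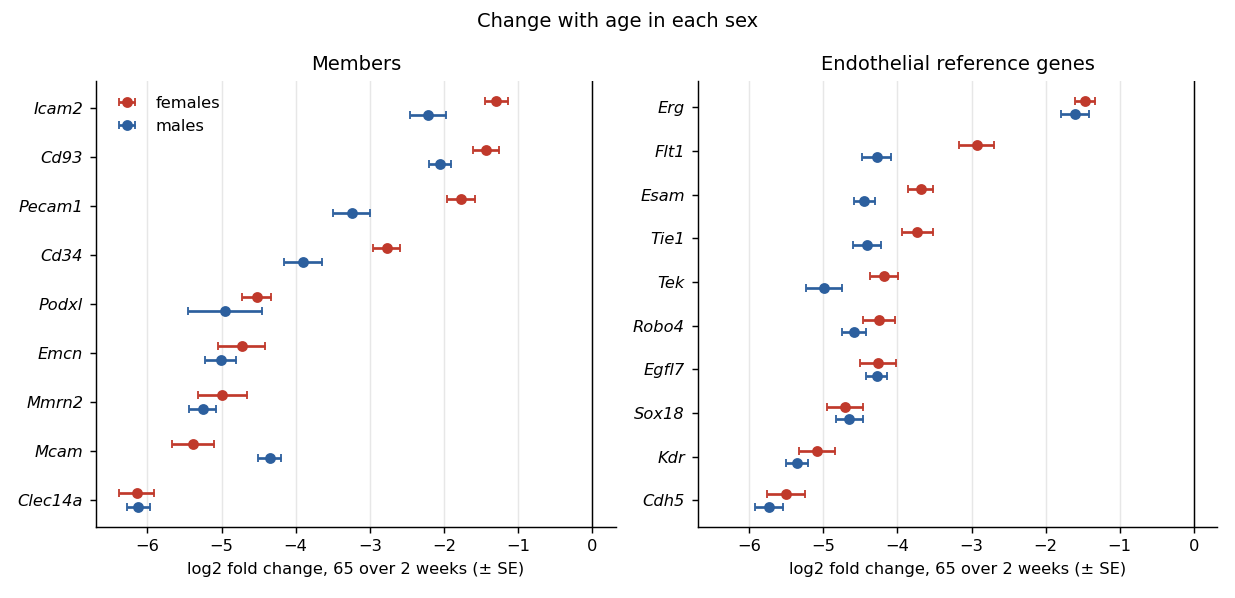
The log2 fold change of 65 over 2 weeks with its SE, for the 9 genes (left) and the 10 genes of the endothelial reference (right), females in red and males in blue. Among the 9, Icam2, Cd93 and Pecam1 lie nearest to 0 and Clec14a farthest, and among the reference genes Erg lies nearest to 0 and Cdh5 farthest.

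The reference genes fell too, from -1.47 (Erg, an ETS factor also found in some blood progenitors) to -5.50 (Cdh5, VE-cadherin) on the log2 scale in females and from -1.60 (Erg) to -5.74 (Cdh5) in males, all 10 called lower in both sexes. Without Erg the smallest fall among them was that of Flt1, a VEGF receptor, at -2.93 and -4.28, whereas the 9 ran from -1.29 to -6.15 in females and from -2.06 to -6.13 in males. The other cell types moved both ways with age. In females and in males respectively, 8 and 7 of 8 monocyte and macrophage markers, 7 and 8 of 8 neutrophil markers, 6 and 6 of 8 B cell markers, 5 and 4 of 6 plasma cell markers and 8 and 6 of 8 T and NK cell markers were called higher, with 1 plasma cell marker lower in each. By contrast 8 of 8 megakaryocyte, 7 of 7 osteoblast, 5 of 5 chondrocyte and 6 of 6 stromal and adipocyte markers were called lower in both sexes. For the 3 genes that fell least, the lists that can carry them moved in different directions. The monocyte and macrophage sum was 3611 to 4562 CPM at 2 weeks and 7698 to 10708 CPM at 65 weeks. The neutrophil sum was 3238 to 5056 and then 8629 to 19680 CPM, and the stem and progenitor sum 153 to 200.2 and then 152 to 269 CPM. The B cell sum was 496 to 726 and then 7149 to 18788 CPM, and the T and NK cell sum 10.5 to 16.3 and then 28.02 to 45.2 CPM. The megakaryocyte and platelet sum instead went down, from between 1594 and 2691 CPM to between 121 and 341 CPM. No gene of these lists was at 0 in any library. Their part in the levels of Pecam1, Cd93 and Icam2 was not tested.

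To ask whether each gene moved as the other endothelial genes did, its CPM was divided by the summed CPM of the endothelial reference in the same library. That sum went from 2302 ± 612 CPM in F.2weeks and 2881 ± 367 in M.2weeks to 118 ± 9.65 in F.65weeks and 106 ± 9.59 in M.65weeks (SD, n = 3). The 9 genes split into those that held above the reference and those that fell with it or below it. The reference fell far more than most genes, with a median log2 fold change of -4.22 in females and -4.51 in males. The medians of all genes were 0.0056 and 0.0080, so a rise relative to the reference is not particular to the genes named. The share of all genes with such a rise was not computed. Differences below are 65 minus 2 weeks on the log2 ratio scale, with a two-sided exact permutation P over 400 relabelings of age within sex, the smallest of which is 0.005, and 9 tests were made.

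Cd93 rose relative to the reference by 2.65 on the log2 scale, or 6.28-fold (exact permutation P = 0.005). It was at -2.73 in F.2weeks and -2.69 in M.2weeks and at -0.0087 and -0.109 at 65 weeks. In the aged libraries, which also held RNA of other cells, its CPM was thus about level with that of the 10 reference genes together. Icam2 rose by 2.61 (6.11-fold, exact permutation P = 0.005), from -5.46 and -5.37 to -2.63 and -2.99. Pecam1 rose by 1.86 (3.62-fold, exact permutation P = 0.005), by 2.36 in females and 1.36 in males. Cd34 rose by 1.04 (2.05-fold, exact permutation P = 0.005). For each of these 4 genes all 6 aged libraries lay above all 6 young ones.

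Clec14a fell relative to the reference by 1.68 on the log2 scale (3.21-fold, exact permutation P = 0.005), and Mmrn2 fell by 0.758 (1.69-fold, exact permutation P = 0.005). For both, all 6 aged libraries lay below all 6 young ones. Emcn fell by 0.506 (1.42-fold, exact permutation P = 0.005), by 0.669 in females and 0.343 in males, with 5 of 6 aged libraries below all young ones. The Emcn call does not hold for every reference: it was -0.261 (exact permutation P = 0.185) without Erg, and 0.726 (P = 0.035) against Cdh5 alone, where Mmrn2 also turned, to 0.474 (P = 0.065). Clec14a was at -0.451 against Cdh5 alone (exact permutation P = 0.015). Podxl (-0.473, exact permutation P = 0.18) and Mcam (-0.474, exact permutation P = 0.185) did not pass 0.05, and for both this depends on the reference. Podxl was at -0.730 (exact permutation P = 0.01) without the most abundant reference gene, at -0.658 (P = 0.02) against the mean log2 CPM of the reference and at -0.678 (P = 0.04) without M.65weeks replicate 3, and at 0.759 against Cdh5 alone. Mcam was at 0.758 (exact permutation P = 0.045) against Cdh5 alone. For Mcam the sexes pulled apart: the ratio was lower with age in females by 1.26 and higher in males by 0.316, each with its 3 aged libraries on 1 side of all young ones. That difference between the sexes was tested only on levels, as given with the interaction.

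**Figure D3:**
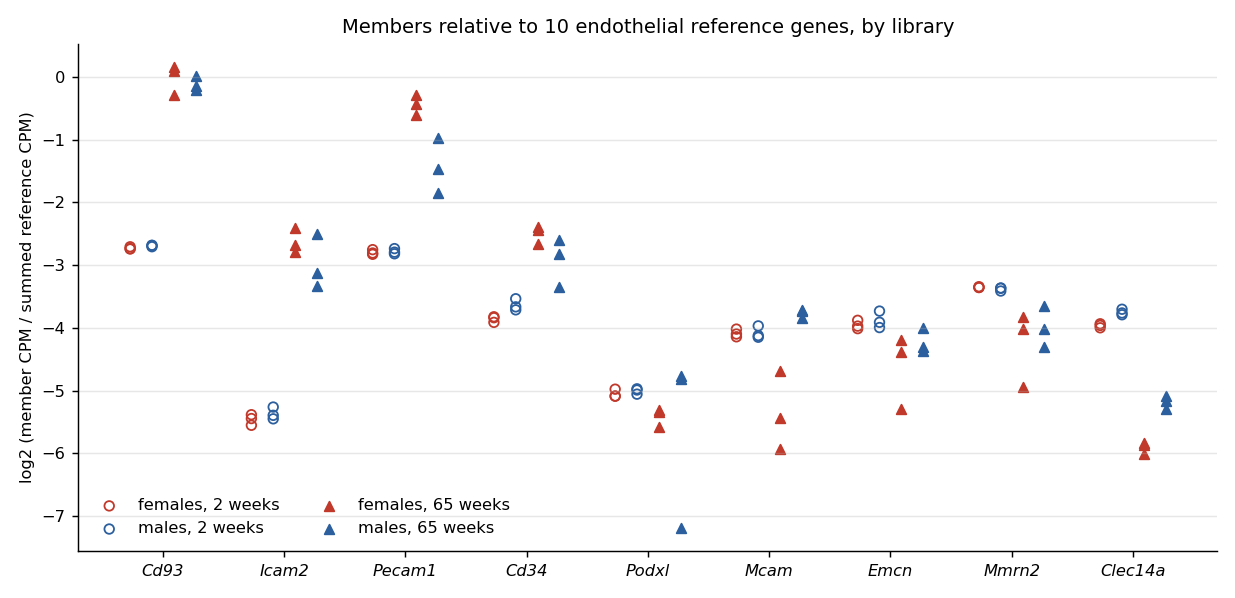
Log2 of each gene's CPM over the summed CPM of the 10 reference genes, 1 point per library, with open circles at 2 weeks, filled triangles at 65 weeks, females in red and males in blue. Cd93, Icam2, Pecam1 and Cd34 lie higher at 65 weeks in every library and Clec14a and Mmrn2 lower, and the aged points of Podxl and Mcam lie on both sides of the young ones.

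The young libraries differed from each other mostly by a common factor. Replicate 2 was the highest and replicate 3 the lowest F.2weeks library for all 9 genes, and replicate 2 was the lowest M.2weeks library for all 9. The SD of log2 CPM within sex was 0.268 to 0.328 across the genes at 2 weeks, and 0.0156 (Cd93) to 0.107 (Emcn) once each gene was taken relative to the reference, smaller for 9 of 9. The reference sum moved in the same libraries, at 2918 CPM in F.2weeks replicate 2 against 1695 in replicate 3. The summed erythroid markers ran the other way, at 18294 and 31072 CPM. Whether the makeup of the sorted cells set this factor was not tested. At 65 weeks the SD was 0.150 (Clec14a) to 0.998 (Podxl), and 0.0954 to 0.983 as a ratio, smaller for 8 of 9 and larger for Mcam. The genes no longer shared an order: replicate 3 of M.65weeks was the highest male library for 7 of 9, and replicate 3 of F.65weeks the lowest female library for 7 of 9 but the highest for Mcam.

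**Figure D4:**
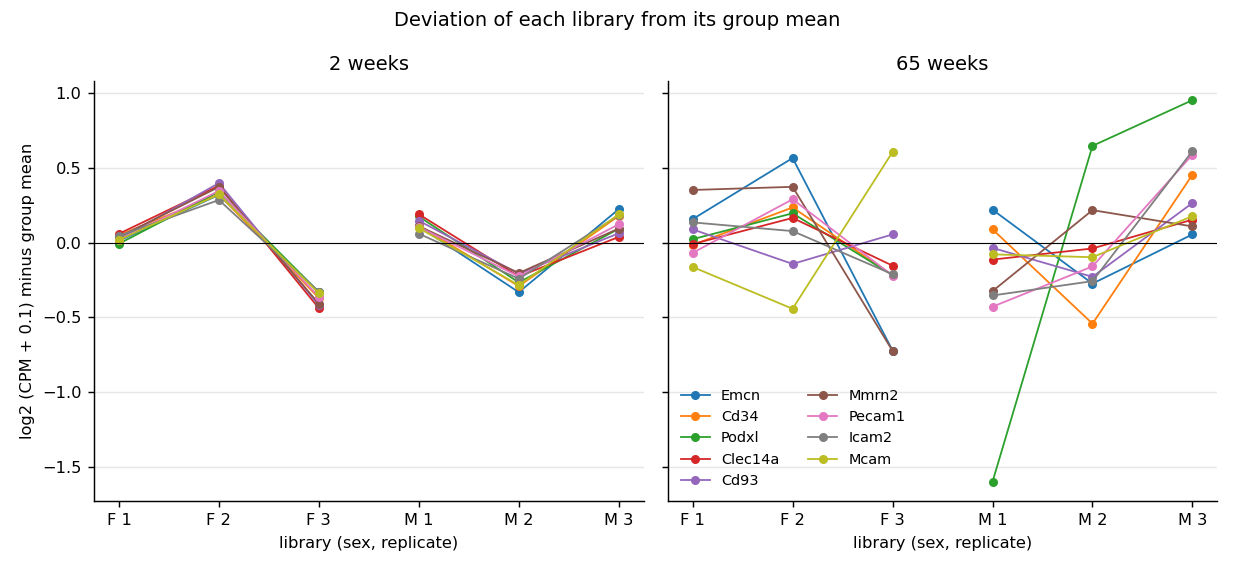
Log2 (CPM + 0.1) of each gene minus its group mean, by library, at 2 weeks (left) and 65 weeks (right), with lines joining 1 gene's libraries within a sex, whose order has no meaning. The 9 lines nearly coincide at 2 weeks and spread at 65 weeks, where Podxl drops in M.65weeks replicate 1 and Mcam runs against Emcn and Mmrn2 in females.

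The likeness of each gene to Emcn was given as Pearson correlations of log2 (CPM + 0.1) after subtracting the group means, over libraries that share depth and cell makeup. Over the 6 young libraries they ran from 0.916 (Clec14a) to 0.996 (Mcam). Among 10871 protein-coding genes the value of Clec14a lay at the percentile 88.3 and that of Mcam at 99.8. A value like that of Clec14a was thus common at 2 weeks, and one like that of Mcam was not. Over the 6 aged libraries Mmrn2 was at 0.683, Clec14a at 0.664, Cd34 at 0.618, Pecam1 at 0.354, Icam2 at 0.307, Cd93 at -0.0942, Podxl at -0.104 and Mcam at -0.873. In that order their percentiles were 95.0, 94.5, 93.0, 81.1, 78.1, 43.2, 42.5 and 1.28. The percentiles of Mmrn2 (92.8 at 2 weeks) and Clec14a were thus higher than at 2 weeks, and those of the other genes were lower.

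Outside the 9, the genes most like Emcn over all 12 libraries by that measure were Macroh2a2 (0.977), Mageh1 (0.971), Timp4 (0.941), Irs1 (0.935) and Fbln2 (0.931). Timp4 encodes an inhibitor of matrix proteases, Irs1 an insulin receptor substrate and Fbln2 a fibulin of the extracellular matrix. Without subtracting the group means they were Macroh2a2, Fbln2, Kcnj8, Pxdn and Bcar1, each at 0.998, a value set mostly by the fall with age that they share with many genes. Macroh2a2, a histone variant gene, was at 9.73 and 10.7 CPM in young females and males and at 0.488 and 0.635 CPM in aged ones. Timp4 was at 0.198 and 0.422 CPM in aged ones. Genes were compared if they passed a minimum level at 2 weeks, so few counts lie behind some of the aged values.

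The comparison of sexes at 2 weeks asks whether cells purified as BECs from growing males and females differ. All 9 genes were higher in males, by 1.21-fold (Mmrn2) to 1.46-fold (Cd34), and none was called, where 0.0332% of 15081 genes were called in either direction and 52% of all genes had a higher fold change in males. On the log2 scale Cd34 was higher by 0.54 (SE 0.173, edgeR adjusted P = 0.229), Clec14a by 0.52 (SE 0.186, adjusted P = 0.244), Icam2 by 0.42 (SE 0.152, adjusted P = 0.247) and Emcn by 0.41 (SE 0.175, adjusted P = 0.281). DESeq2 called none of the 9, and 4 of them (those just given) had an unadjusted P under 0.05 by edgeR, as had 17.8% of all genes. The libraries of the sexes overlapped for every gene. The 9 genes moved together over the young libraries, as given above, so their shared direction does not amount to 9 independent results. The 10 reference genes were also all higher in males and none was called, with a median of 0.30 against 0.37 for the 9. Neutrophil markers were lower in males, 8 of 8 at an unadjusted P under 0.05 and none called, with sums of 3238 to 3468 CPM against 4076 to 5056 in females. The B cell sum was 496 to 584 against 634 to 726 CPM. Their part in the higher levels of the 9 was not tested.

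At 65 weeks the genes no longer shared a direction between the sexes. Of the 9, 4 were higher and 5 lower in males and none was called by edgeR, where 0.042% of 14287 genes were called. Pecam1 was lower in males by 2.18-fold (log2 fold change -1.12, SE 0.236, edgeR adjusted P = 0.173), at 41.2 ± 15.9 CPM against 87.9 ± 16.5 (SD, n = 3). Mcam was higher in males by 2.61-fold (1.38, SE 0.299, edgeR adjusted P = 0.173), at 7.73 ± 0.856 against 2.93 ± 1.204 CPM. These and Clec14a (0.57, SE 0.278, adjusted P = 0.547) were the 3 genes whose libraries did not overlap, as held for 15.5% of all genes. Cd34 (-0.56, SE 0.238, adjusted P = 0.470), Icam2 (-0.49, SE 0.239, adjusted P = 0.550) and Cd93 (-0.26, SE 0.129, adjusted P = 0.553) were lower in males with overlap. Before adjustment 3 of the 9 (Pecam1, Mcam and Cd34) were under 0.05, as were 10.4% of all genes. Emcn (0.16, SE 0.339), Mmrn2 (0.037, SE 0.315) and Podxl (-0.037, SE 0.557) differed by less than their errors.

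The calls of Pecam1 and Mcam at 65 weeks depend on the model. DESeq2, the tool of the study, called both, Pecam1 at an adjusted P of 0.000709 and Mcam at 0.00187, among 398 genes called. A single edgeR model of all 12 libraries called both as well (adjusted P = 0.0435 and 0.0305), among 254. Leaving out M.65weeks replicate 3 gave 830 calls, with Pecam1 (-1.44, edgeR adjusted P = 0.00718) and Icam2 (-0.82, adjusted P = 0.0259) among them and Mcam not (adjusted P = 0.0629). That library had 59.2 CPM of Pecam1 against 29.2 and 35.2, and also the lowest summed neutrophil level of the aged males, at 13238 against 19189 and 19680 CPM, and the highest summed stem and progenitor level, at 253 against 152 and 192 CPM. Between the sexes, neutrophil markers were higher in aged males, 8 of 8 at an unadjusted P under 0.05 and none called. The megakaryocyte and platelet sum was 121 to 341 CPM in males and 195 to 314 in females, and the pericyte and smooth muscle sum, of cells that can carry Mcam, was 50.3 to 70.4 against 43.0 to 57.9 CPM. Of the 6 tested genes of that list 4 were higher in males and none was called. Notch3 (log2 fold change 0.88) and Acta2 (0.82) were higher without overlap, and Rgs5 (-0.58) and Abcc9 (-0.020) were lower with overlap. The part of these cells in the difference was not tested.

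**Figure D5:**
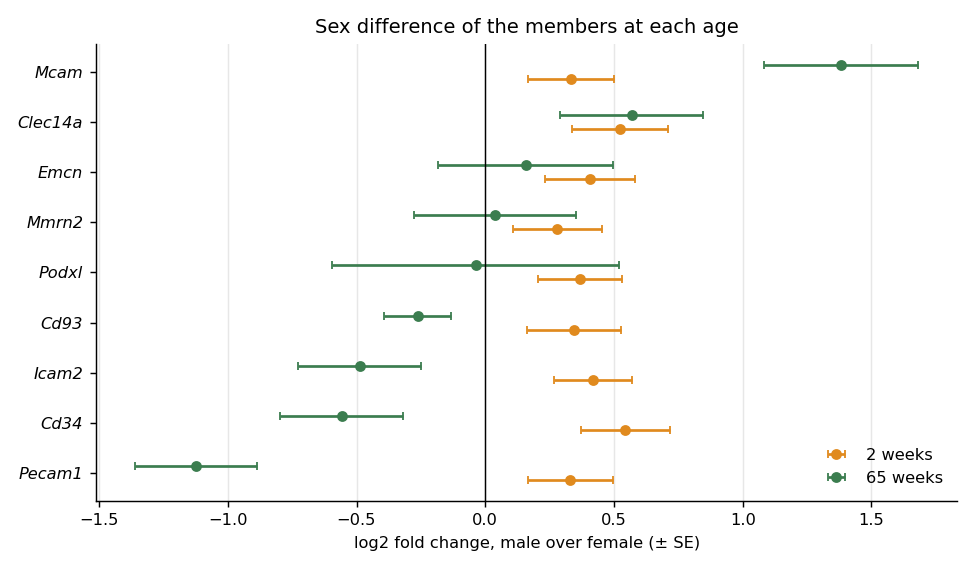
The log2 fold change of male over female with its SE, for each gene at 2 weeks (orange) and 65 weeks (green). All 9 points lie above 0 at 2 weeks, and at 65 weeks they run from -1.12 for Pecam1 to 1.38 for Mcam.

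The change of each sex difference between the ages was fitted over the 12 libraries as an interaction, and none of the 9 was called, where 0.00635% of 15747 genes were. Pecam1 moved the most, by -1.47 in log2 units (SE 0.335, edgeR adjusted P = 0.138). It was followed by Cd34 (-1.12, SE 0.328, adjusted P = 0.217), Mcam (1.04, SE 0.333, adjusted P = 0.254), Icam2 (-0.92, SE 0.317, adjusted P = 0.281) and Cd93 (-0.62, SE 0.257, adjusted P = 0.369), and all 5 were under 0.05 before adjustment, as were 11.9% of all genes. Emcn changed by -0.27 (SE 0.392) and Clec14a by 0.027 (SE 0.280). DESeq2 called Pecam1 (-1.45, adjusted P = 0.00486). Without M.65weeks replicate 3, edgeR called Pecam1 (-1.77, adjusted P = 0.0103), Icam2 (-1.24, adjusted P = 0.0193) and Cd34 (-1.31, adjusted P = 0.0410), among 750 genes.

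The relatives and partners of the 9 genes were followed as 5 lists, and they did not move as 1 block. Between the sexes edgeR called 0 of their 33 tested genes at 2 weeks, 0 of 31 at 65 weeks and 0 of 33 in the interaction, with 13, 7 and 13 under an unadjusted P of 0.05, where 17.8%, 10.4% and 11.9% of all genes were. DESeq2 called 6, 5 and 5 of them, and of all genes 447 of 15081, 398 of 14287 and 394 of 15747. Among sialomucins and selectins 4 of 8 tested genes were lower with age in both sexes, and 4 were higher in females and 3 in males, where 30.2% and 27% of all genes were called higher. Madcam1, the mucosal addressin, was at 13.0 ± 5.69 CPM in young females and had 3 counts in all in aged ones, and in males it was at 10.7 ± 2.56 CPM and then at 0 in every library, or at least 286-fold lower against 3 counts over the group. Sele, E-selectin, fell in both sexes (log2 fold change -4.30 in females and -3.71 in males, SE 0.283 and 0.203). On the leukocyte side of the same contacts Spn, the leukosialin gene, rose by 1.66 and 1.74 (SE 0.132 and 0.128). The remaining gene, Glycam1, was too low to be tested.

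Of the 5 linkers that tie podocalyxin and ICAM2 to actin, Slc9a3r2 (Nherf2) fell in both sexes (log2 fold change -3.62 and -3.58, SE 0.242 and 0.180). Ezr, ezrin, rose by 0.58 and 0.95 (SE 0.117 and 0.0902), and Slc9a3r1 (Nherf1) rose by 0.47 and 0.84 (SE 0.0947 and 0.0919). In all 3 were called higher and 1 lower in females, and 2 and 1 in males. Of the 6 relatives of the lectins and of multimerin 2, 5 were lower and 1 higher in each sex. Emilin3 was at 1.75 ± 0.217 and 1.85 ± 0.488 CPM in young females and males and at 0 in every aged library, or at least 54.0-fold and 49.4-fold lower. Cd248, endosialin, fell (-3.49 and -4.24, SE 0.261 and 0.433), and Emilin2 rose by 1.199 and 1.68 (SE 0.159 and 0.171).

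The ICAM relatives and the integrin chains that bind them gave 4 of 7 higher in both sexes, with none lower in females and 2 in males. Itgal, which pairs with Itgb2 to make LFA-1, the receptor of ICAM2, rose by 2.25 and 2.13 (SE 0.179 and 0.120), and Itgb2 rose by 1.83 and 1.74 (SE 0.145 and 0.112), while Icam2 itself fell. Among partners of PECAM1 and MCAM 2 of 7 were higher and 4 lower in both sexes. Cd177, a neutrophil protein that binds PECAM1, rose by 2.14 and 3.35 (SE 0.125 and 0.198), and Ptpn6, a phosphatase that binds its tail, rose by 1.40 and 1.49 (SE 0.0954 and 0.163). The laminin chains Lama4 and Lamb1, parts of the laminin that MCAM binds, fell (Lama4 -3.81 and -4.58, SE 0.192 and 0.214, and Lamb1 -3.61 and -4.01, SE 0.195 and 0.163).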

How the data were processed

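RNA of endomucin-purified BECs was sequenced with paired reads in 12 libraries, 3 in each of 4 groups taken from the sex and age in the labels. The authors deposited raw counts per gene with no normalisation. The methods of the study name GRCm39, STAR and featureCounts, whereas the submitters' processing notes name mm9, TopHat2 and HTSeq. Which of these made the counts was not resolved, the use of strand is not given in the sources used here, and so genes on opposite strands that share exons cannot be told apart. The kit was for total RNA, while the labels name polyA RNA.

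Gene names and coordinates came from GENCODE M39 (GRCm39) by Ensembl ID, which matched 31052 of 37620 IDs with 99.29% of the counts. CPM were computed from total counts. Each comparison was fitted on its own 6 libraries with edgeR 4.0.16 in R 4.3.3 (quasi-likelihood test after filterByExpr at a count of 10 and TMM, with P values adjusted by Benjamini-Hochberg over all genes tested, at 0.05), and the interaction on all 12. Ratios to the endothelial reference used a pseudocount of 0.1 CPM, also for correlations with Emcn, and an exact permutation test. The fit was tested on simulated data. Sequences came from RefSeq and were matched to GRCm39.

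The 9 genes and all gene lists were chosen with earlier results of these data known. All 9 are named. Of the partner lists, at most 2 genes in each direction are named, those called with age in both sexes with the largest mean log2 fold change. The result for 1 gene that this rule names is not reported here. Of genes like Emcn, the 5 with the highest correlation by each measure are named, among protein-coding genes with a mean of at least 5 CPM at 2 weeks. A count of 0 was read as allowing up to 3 counts, over the group. Limits set in this way cover counting error only, whereas the SDs and SEs given include the spread between libraries. Alternatives were DESeq2 1.42.0, other scalings, no filter, robust dispersion, 1 model of all libraries, a replicate block, other references and each library left out. Replicate numbers do not pair the libraries: correlations of same-numbered deviations were -0.387 to 0.153. Replicates of a group differed by 26.6 to 102.5 times the sampling noise (chi-square per degree of freedom). None was therefore only a second sequencing of the same library, but this cannot tell whether replicates came from separate mice.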

Additional observations from a re-analysis of the deposited data

How the results depend on the processing

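The 9 falls with age were called in both sexes under each of 8 other settings and with each library left out, with 9 of 9 throughout. With library totals alone as the scaling, the median log2 fold change of all genes was -0.130 in females and -0.107 in males, against 0.0056 and 0.0080 as reported. No member was called between the sexes at 2 weeks under any setting. At 65 weeks, where edgeR called 0, DESeq2 called 2, no filter 1 and the model of all libraries 2, and leaving out libraries gave 0 to 2. For the interaction, DESeq2 called 1 and leaving out libraries gave 0 to 3. The replicate block called 9 members with age in each sex and 0 in each of the other comparisons.

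Of the ratios, 4 changed sign against Cdh5 alone, which fell more than any other reference gene: Emcn to 0.726, Mcam to 0.758, Podxl to 0.759 and Mmrn2 to 0.474. Clec14a was at -0.451 there. Emcn was -0.261 without Erg, a reference chosen after seeing the data. Podxl passed 0.05 without the most abundant reference gene (-0.730) and with the mean log2 CPM of the reference (-0.658), and leaving out libraries gave -0.678, with M.65weeks replicate 3 absent, to -0.0737. The exon length used for levels was also chosen after seeing the data. Counts over all genes also moved with the setting. Between the sexes at 2 weeks they went from 5 of 15081 by edgeR to 447 by DESeq2. At 65 weeks they went from 6 of 14287 to 398, with 105 of 20350 without a filter and 16 with robust dispersion. At 65 weeks Clec14a rested on 49 to 82 counts per library and Podxl on 17 to 108. Per-cell levels cannot be had from these libraries.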
